A study of Mus musculus with 17 samples.

Results

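Cyp24a1 and 7 genes that act around it in vitamin D and phosphate handling were followed in mouse kidney: Cyp27b1, Vdr, Rxra, Kl, Pth1r, Slc34a1 and Slc34a3. These 8 genes were taken by name from a table of 42794 genes and 17 whole-kidney RNA libraries. Cyp24a1 was selected on its FPKM difference between the groups in these same libraries, so its levels are described here without a test, and the other 7 were chosen for what they do around it, with earlier results known. The study asked what the glucagon receptor, Gcgr, does in proximal tubule cells of the diabetic kidney. It compared 4 libraries of wild-type control mice, named NC in their titles, with 6 libraries of the Ctr shRNA genotype and 7 libraries of the Gcgr shRNA genotype. The titles of both shRNA groups begin with DKD, and those of the Ctr shRNA libraries say Vehicle rather than an shRNA. No source used here gives age, sex, strain, how disease was brought about or how the hairpin was delivered. The hairpin against Gcgr was meant to act in proximal tubule cells alone, whereas the RNA came from whole kidney. The labels do not tie libraries to separate mice, so every p-value measures the spread between libraries.

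Vitamin D reaches the proximal tubule bound to its carrier protein and is activated there by the enzyme encoded by Cyp27b1. Calcitriol, the active hormone, binds the vitamin D receptor, Vdr, which pairs with a retinoid X receptor such as Rxra on DNA. Cyp24a1 encodes the mitochondrial enzyme that breaks calcitriol down, and it is a classic target of the receptor. Parathyroid hormone acts through Pth1r, and the bone hormone FGF23 acts through FGF receptors with klotho, encoded by Kl. Both hormones lower uptake of phosphate through the cotransporters Slc34a1 and Slc34a3 of the proximal brush border. Parathyroid hormone raises and FGF23 lowers activation of vitamin D.

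Slc34a3, Slc34a1, Vdr and Cyp27b1 are the genes whose levels are set beside Cyp24a1 most closely below, and the 250 bases before their first listed transcription start are shown to let the reader see whether letters of the receptor's binding motif lie there. The sequences come from RefSeq on GRCm38.p6, which holds such a window for 7 of the 8 genes; Cyp24a1 is the eighth. Capitals mark half-sites of the receptor, searched on both strands as AGGTCA or its variants AGTTCA and also GGGTCA and lastly GGTTCA, or a pair of half-sites in the same direction with 3 bases between them. The Slc34a1 window is chr13:55399398-55399647 on the plus strand and the Vdr window is chr15:97908297-97908546 on the minus strand, both wholly inside their genes' deposited spans. The Slc34a3 window, chr2:25234235-25234484 on the minus strand, overlaps its gene's span in part, and the Cyp27b1 window is chr10:127047996-127048245 on the plus strand.
Slc34a1: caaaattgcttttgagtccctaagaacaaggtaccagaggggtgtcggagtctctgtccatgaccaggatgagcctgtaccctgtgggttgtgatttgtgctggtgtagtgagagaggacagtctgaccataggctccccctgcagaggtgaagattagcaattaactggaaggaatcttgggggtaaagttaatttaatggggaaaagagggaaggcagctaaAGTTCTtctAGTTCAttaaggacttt
Slc34a3: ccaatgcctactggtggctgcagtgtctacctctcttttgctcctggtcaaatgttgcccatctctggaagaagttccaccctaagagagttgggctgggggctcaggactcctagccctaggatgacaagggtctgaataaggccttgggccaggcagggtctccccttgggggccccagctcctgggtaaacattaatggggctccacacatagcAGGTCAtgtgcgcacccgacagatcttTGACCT
Vdr: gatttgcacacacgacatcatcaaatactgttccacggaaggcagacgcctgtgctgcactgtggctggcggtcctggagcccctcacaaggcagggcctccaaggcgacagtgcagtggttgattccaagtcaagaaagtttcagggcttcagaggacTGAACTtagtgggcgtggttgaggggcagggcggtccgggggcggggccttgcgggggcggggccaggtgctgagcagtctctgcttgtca
Cyp27b1: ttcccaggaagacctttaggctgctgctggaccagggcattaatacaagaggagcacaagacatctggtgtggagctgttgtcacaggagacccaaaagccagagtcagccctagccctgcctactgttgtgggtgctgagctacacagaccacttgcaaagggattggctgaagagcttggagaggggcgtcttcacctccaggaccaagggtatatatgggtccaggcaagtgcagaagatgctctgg
The Slc34a1 window held a spaced pair from 26 to 12 bases before the start, AGTTCTTCTAGTTCA, which departs from listed half-sites at 1 base. Such a pair with at most 1 mismatch was found in 461 of 32851 windows of 27025 genes, or 1.403%. Slc34a3 held single half-sites at 33 to 28 and, on the opposite strand, at 6 to 1 bases before its start, and Vdr held 1 at 91 to 86 bases on the opposite strand. A single half-site was present in 38.6% of all windows, so most of these matches are of a common kind. The Cyp27b1 window held no match. These are letters in a window and no measurement of binding was made.

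The targeted gene was looked at first. FPKM counts fragments per kilobase of gene length, divided by a read total set for each library. Gcgr stood at 21.5, 18.3, 19.4 and 23.8 FPKM in control libraries 37, 38, 39 and 41. It ranged from 5.89 to 11.8 with a median of 10.4 in Ctr shRNA, and from 11.0 to 15.7 with a median of 13.2 under the label Gcgr shRNA. Set against Ctr shRNA, Gcgr in libraries labelled Gcgr shRNA was therefore higher, not lower, by 0.40 in log2(FPKM + 1) (two-sided exact permutation test over 6 and 7 libraries, p = 0.00816). In the fit over all tested genes its limma adjusted p was 0.413, and it did not pass in any of 27 alternatives. Without Ctr shRNA 20, the lowest, the other 5 Ctr shRNA libraries held from 8.80 to 11.8 FPKM. Gcgr under the label Gcgr shRNA was lower than in control by 0.64 (p = 0.00606 by the same exact test). Because this goes against the label, each direction below belongs to the libraries as labelled. One Ctr shRNA library, number 20, stood apart: its 7 fat cell markers summed to 691 FPKM against at most 47.5 elsewhere, its 7 urothelium markers to 196 against at most 11.9, and its 22 proximal tubule markers to 17302 FPKM, the lowest sum of all 17. Kap alone made up 11733 FPKM of that proximal sum. The mean log2 level of the 22 was also lowest there, at 7.41. Adipoq reached 45.3 FPKM there, against at most 2.43 elsewhere and 0 in 9 libraries, and Upk3a reached 56.8 against at most 3.23 and 0 in 5. The kidney label was matched by its tubule markers, of which all 22 proximal, 10 distal convoluted and 9 thick ascending limb genes were above 0 in every library. Reads recovered from the FPKM steps numbered 13997657 to 17107876 a library. The read total behind FPKM ran from 0.949 to 1.15 of the recovered reads. It was highest for Ctr shRNA 20, whose FPKM values are thus lower than recovered reads alone would give.

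Cyp24a1 (chr2:170482708-170497145, minus strand) was low in every Ctr shRNA library and high in every library labelled Gcgr shRNA. The control libraries 37, 38, 39 and 41 held 37.5, 118, 16.4 and 36.6 FPKM. Ctr shRNA libraries held from 5.29 to 15.2 FPKM with a median of 9.01. The libraries labelled Gcgr shRNA held from 28.5 to 64.5 FPKM with a median of 41.1. In FPKM each Ctr shRNA library lay below every library of either other group, while the libraries labelled Gcgr shRNA fell inside the control range. The closest were Ctr shRNA 20 at 15.2 and control 39 at 16.4 FPKM. Ctr shRNA 20 held 1022 Cyp24a1 reads of 16345727 recovered, and control 39 held 884 of 14838398. Per recovered read, Ctr shRNA 20 lay above control 39, so the separation of Ctr shRNA from control depends on the scaling. As group means, Cyp24a1 stood at 52.1 ± 45.0 FPKM (SD, n = 4) in control, 9.28 ± 3.46 (n = 6) in Ctr shRNA and 44.3 ± 12.2 (n = 7) under the label Gcgr shRNA. The fitted log2 difference in FPKM + 1 was -2.08 for Ctr shRNA against control and 2.16 for the libraries labelled Gcgr shRNA against Ctr shRNA, and 0.08 for those against control. Control 38 carried much of the control mean, and without it the first of these was -1.58. Over 27 alternatives the first ran from -2.50 to -1.58 and the second from 2.03 to 2.37. The third ran from -0.34 without control 39 to 0.58 without control 38 and kept its sign in 23 of 27, so no direction is given for it. Fewer cells of a type and less RNA per cell cannot be told apart in whole-kidney libraries. The gene also shares 718 bases with Pfdn4 on the opposite strand, a chaperone subunit gene at no more than 5.37 FPKM in any library, and no source used here says that reads were counted by strand.

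**Figure D1:**
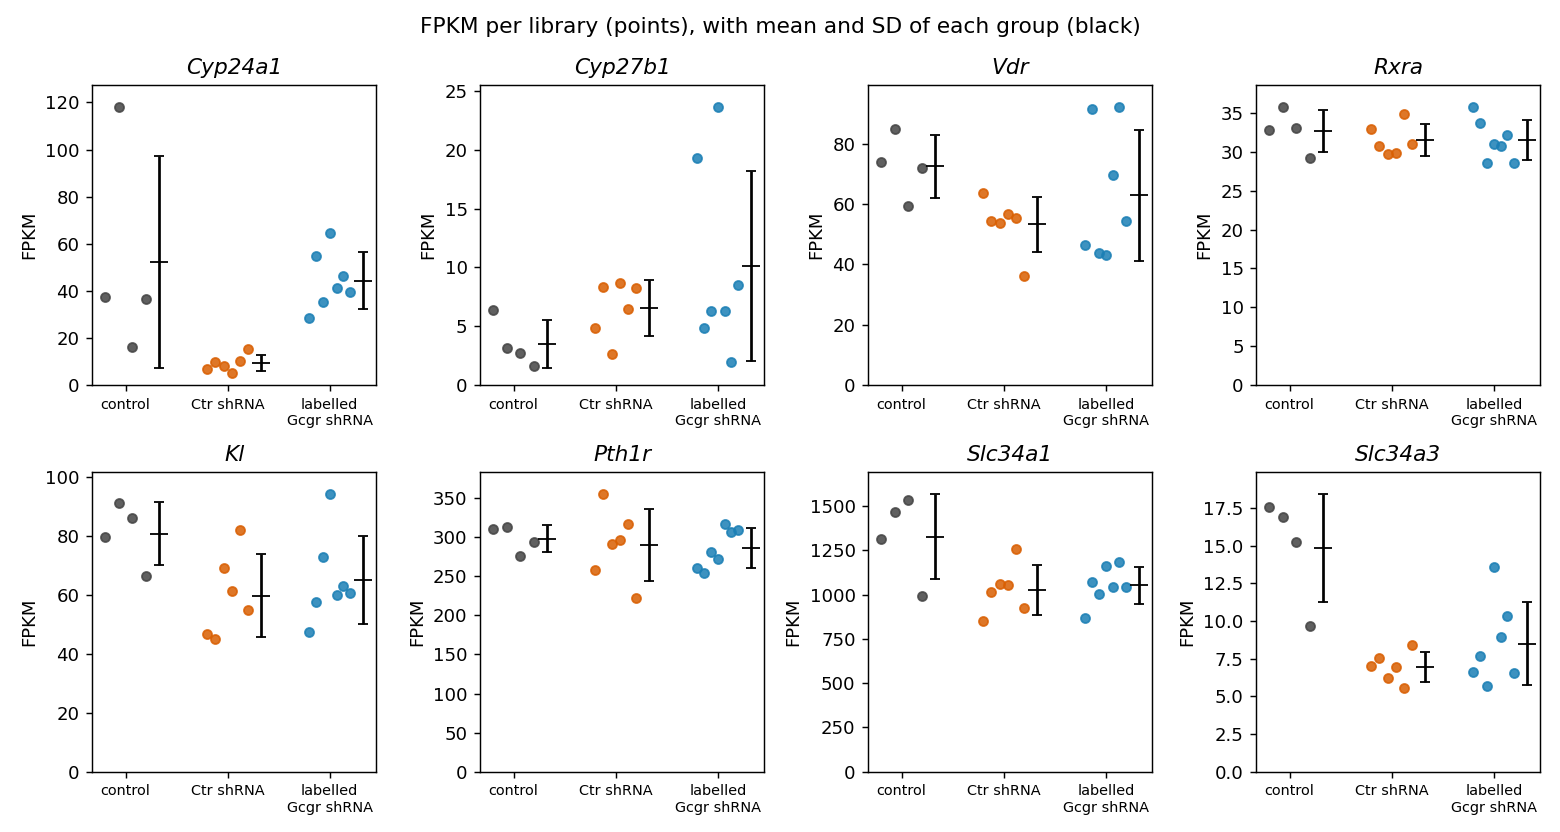
FPKM of the 8 genes in each of the 17 libraries (points; 4 control, 6 Ctr shRNA, 7 labelled Gcgr shRNA), with the mean and SD of each group in black, each panel starting at 0. For Cyp24a1 the Ctr shRNA points lie between 5.29 and 15.2 and below all other points, while Rxra and Pth1r overlap across all 3 groups.

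Cyp27b1 (chr10:127048250-127053006, plus strand), the activating enzyme, did not pass the test in any of the 3 comparisons. It read 6.39, 3.11, 2.71 and 1.64 FPKM in control libraries 37, 38, 39 and 41. Ctr shRNA libraries ranged from 2.68 to 8.67 with a median of 7.37 FPKM, and those labelled Gcgr shRNA from 1.996 to 23.6 with a median of 6.32. All groups overlapped, and libraries 13 and 31 labelled Gcgr shRNA were the highest, at 19.3 and 23.6 FPKM. The log2 difference was 0.79 ± 0.47 (SE; limma adjusted p = 0.334) for Ctr shRNA against control. It was 1.10 ± 0.46 (limma adjusted p = 0.244) for the libraries labelled Gcgr shRNA against control and 0.31 ± 0.41 (adjusted p = 0.902) for those against Ctr shRNA. The ratio of Cyp24a1 to Cyp27b1 in FPKM, breakdown over activation, ran from 5.88 to 37.99 in control and from 0.609 to 3.07 in Ctr shRNA, which did not overlap. It ran from 1.48 to 23.2 with a median of 5.55 in the third group. That ratio contains Cyp24a1 and so restates its difference in part.

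Vdr (chr15:97854425-97910630, minus strand), the receptor, varied less than either enzyme. It read 74.1, 84.8, 59.4 and 71.9 FPKM in control libraries 37, 38, 39 and 41, from 36.1 to 63.6 with a median of 55.0 in Ctr shRNA, and from 43.0 to 92.2 with a median of 54.3 in those labelled Gcgr shRNA. The last group was the most spread: libraries 15 and 34 stood at 91.5 and 92.2 FPKM, above all other libraries of the series, and libraries 13, 29 and 31 below 50 FPKM. The log2 difference of Ctr shRNA from control was -0.45 ± 0.22 (SE; limma adjusted p = 0.227). That of the libraries labelled Gcgr shRNA from Ctr shRNA was 0.19 ± 0.19 (adjusted p = 0.871) and 0.08 without Ctr shRNA 20, which held the lowest value of Vdr in the series. Rxra (chr2:27676440-27762957, plus strand), the partner receptor, was the steadiest of the 8. Its 17 values lay between 28.6 and 35.8 FPKM, with group means of 32.7 ± 2.71 (SD, n = 4), 31.5 ± 1.997 (n = 6) and 31.5 ± 2.62 (n = 7). For Rxra the 95% interval of the log2 difference of Ctr shRNA from control ran from -0.21 to 0.11.

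Kl (chr5:150952607-150993817, plus strand), the klotho co-receptor, read 79.6, 91.1, 85.9 and 66.5 FPKM in control libraries 37, 38, 39 and 41. Ctr shRNA libraries ranged from 44.9 to 81.8 with a median of 58.0 FPKM and those labelled Gcgr shRNA from 47.3 to 94.2 with a median of 60.5. All groups overlapped, and library 31 labelled Gcgr shRNA, at 94.2 FPKM, was the highest of all. The log2 difference of Ctr shRNA from control was -0.45 ± 0.18 (SE; limma adjusted p = 0.130), and with sample weights its adjusted p was 0.0489. Pth1r (chr9:110722085-110747145, minus strand), the parathyroid hormone receptor, lay between 222 and 355 FPKM in all 17 libraries. Its lowest and highest libraries were both Ctr shRNA, numbers 20 and 4. Its log2 difference from control was -0.05 ± 0.11 (adjusted p = 0.812) in Ctr shRNA, and -0.06 ± 0.11 (adjusted p = 0.820) where the label was Gcgr shRNA. Myl3, which overlaps Pth1r on the opposite strand, was at most 0.389 FPKM.

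Slc34a3 (chr2:25228898-25234364, minus strand), the less abundant renal phosphate cotransporter, was the one gene of the 7 beside Cyp24a1 that passed the test, in Ctr shRNA against control, where 7.49% of all tested genes passed, and in libraries labelled Gcgr shRNA against control, where 2.02% did. Its control values in libraries 37, 38, 39 and 41 were 17.6, 16.9, 15.2 and 9.63 FPKM. Ctr shRNA ran from 5.53 to 8.42 with a median of 6.98, and the libraries labelled Gcgr shRNA from 5.68 to 13.6 with a median of 7.65. In FPKM, control and Ctr shRNA did not overlap, as for 10.1% of all tested genes. Of the libraries labelled Gcgr shRNA, only numbers 31 and 34 exceeded the lowest control value. The closest libraries were Ctr shRNA 20, with 374 Slc34a3 reads of 16345727 recovered, and control 41, with 365 of 16187776. Per recovered read, Ctr shRNA 20 lay above control 41, so the non-overlap depends on the scaling. Slc34a3 fell in Ctr shRNA by 0.97 ± 0.20 on the log2 scale of FPKM + 1 (SE; limma adjusted p = 0.00647), and this passed under all 27 alternatives. It was lower in the libraries labelled Gcgr shRNA as well, by a log2 difference of -0.75 ± 0.19 (limma adjusted p = 0.0487), which passed in 13 of 27 alternatives, with adjusted p up to 0.186. That call was lost without any one of control 37, 38 or 39, Ctr shRNA 1, 6 or 8, or Gcgr shRNA 13, 15, 29, 32 or 35. It was also lost with a pseudocount of 0.01, without a filter and with only the 2 groups compared. Between the shRNA groups Slc34a3 differed by 0.22 ± 0.17 (adjusted p = 0.830).

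Slc34a1 (chr13:55398187-55415592, plus strand), the major renal phosphate cotransporter, was the most abundant of the 8 per kilobase. It read 1317, 1466, 1535 and 993 FPKM in control libraries 37, 38, 39 and 41. Ctr shRNA ranged from 850 to 1257 with a median of 1035, and the libraries labelled Gcgr shRNA from 867 to 1183 with a median of 1045. In 3 of 4 control libraries Slc34a1 lay above all others, and control 41 lay among them. Its log2 difference was -0.36 ± 0.13 (SE; limma adjusted p = 0.103) in Ctr shRNA and -0.32 ± 0.13 (adjusted p = 0.222) where the label was Gcgr shRNA, each against control. The first passed with sample weights or without control 41, with adjusted p as low as 0.0289. The ratio of Slc34a1 to Slc34a3 in FPKM ran from 75.0 to 103 in control and from 110 to 228 in Ctr shRNA, so the groups did not overlap in this ratio. It ran from 85.3 to 176 in the third group. This ratio contains Slc34a3 and so restates its difference from control in part.

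Proximal tubule markers moved in the same direction as the cotransporters. Of 22 such genes, 8 fell and 0 rose in Ctr shRNA against control by limma adjusted p, against 3.91% and 3.58% of all tested genes. Their median log2 difference there was -0.37, against 0.01 for all genes. In the libraries labelled Gcgr shRNA against control, 1 fell and 0 rose, against 0.595% and 1.42% of all tested genes, with a median of -0.29. The summed level of the 22 was 33902 to 46291 FPKM in control, 17302 to 37152 in Ctr shRNA, and 24344 to 47101 under the label Gcgr shRNA. Kap, 1 of the 22 markers, made up most of each sum, at 37684 FPKM in control 41, 11733 in Ctr shRNA 20 and 38127 in Gcgr shRNA 32. The mean log2 level of those markers was subtracted from each gene in each library. Slc34a1 then stood at 2.30 ± 0.15 (SD, n = 4), 2.32 ± 0.14 (n = 6) and 2.27 ± 0.09 (n = 7) across control, Ctr shRNA and libraries labelled Gcgr shRNA in turn, whereas Slc34a3 stood at -4.11 ± 0.25, -4.70 ± 0.31 and -4.57 ± 0.31. Vdr, at -1.87, -1.93 and -1.84, and Kl, at -1.71, -1.78 and -1.75, differed between groups by less than the larger SD of the groups compared, as Slc34a1 did. Pth1r, at 0.16 ± 0.15, 0.49 ± 0.13 and 0.39 ± 0.11, and Rxra, at -2.99 ± 0.04, -2.65 ± 0.15 and -2.75 ± 0.18, were lowest in control on this scale, and so was Cyp27b1, at -6.00 ± 0.55, -4.83 ± 0.59 and -4.62 ± 1.11. Cyp24a1 on that scale stood at -2.68 ± 1.12, -4.38 ± 0.56 and -2.31 ± 0.33. The subtracted marker mean was itself 8.06, 7.68 and 7.77 in turn, so a gene with a steady level is lowest in control after subtraction. Before subtraction, Pth1r and Rxra each differed by -0.05 in log2 in Ctr shRNA against control. Beyond that arithmetic, the part of marker levels in these differences was not tested.

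**Figure D2:**
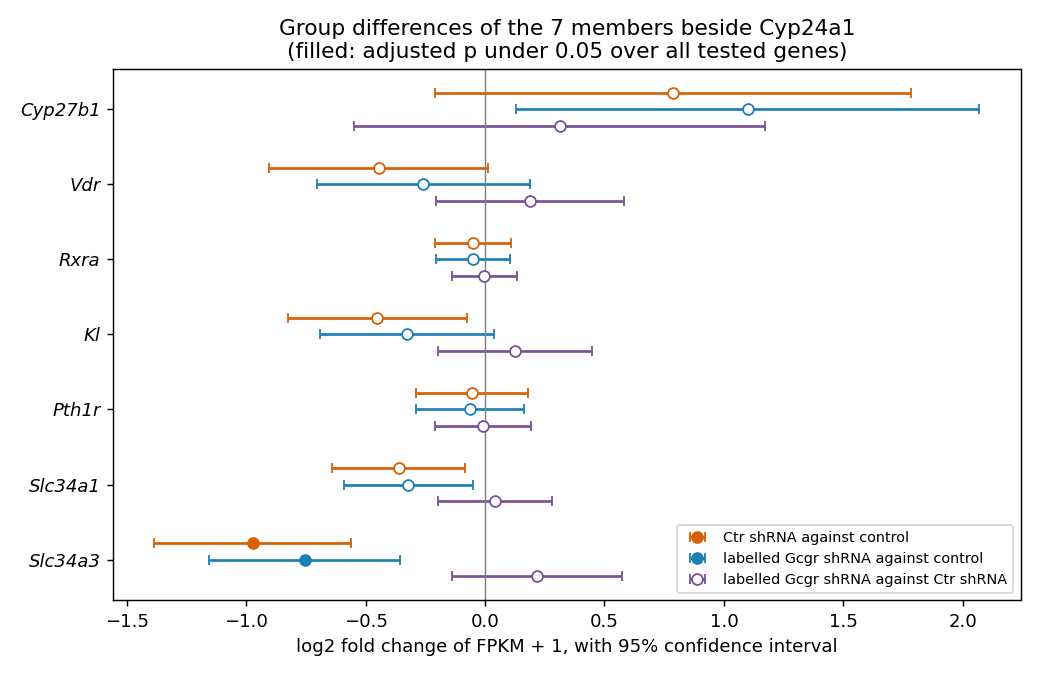
Log2 differences of FPKM + 1 with 95% confidence intervals for the 7 genes beside Cyp24a1 in the 3 comparisons, filled where the limma adjusted p over all tested genes is under 0.05. Slc34a3 is filled in both comparisons with control, at -0.97 and -0.75, and all other points are open.

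Set against all 13279 tested genes, each comparison gave the following. In Ctr shRNA against control, 7.49% of genes passed (3.58% higher and 3.91% lower), and 1 of the 7 genes beside Cyp24a1 did, on the lower side, while 6 were lower and 1 higher with a median of -0.36 against 0.01 for all genes. Non-overlap of the groups in FPKM was found for 10.1% of all genes and for Slc34a3 among the 7. In the libraries labelled Gcgr shRNA against Ctr shRNA, 0 of 13279 genes passed in limma-trend and 0 by voom, with 972 at an unadjusted p under 0.05 in the former, so percent called was 0 and 0 of the 7 passed. In that comparison 27 genes, or 0.203%, had groups that did not overlap, and none of the 7 was among them. Cyp24a1 was, but it was selected on its difference between the groups, so its place there is no separate result. In the libraries labelled Gcgr shRNA against control, 2.02% of genes passed (1.42% higher and 0.595% lower) and 1 of the 7 did, on the lower side, with a median of -0.26. Groups that did not overlap made up 5.54% of all genes there and 0 of the 7. The 3 comparisons share libraries, so they are given side by side and not set against each other.

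Whether the other genes followed Cyp24a1 from library to library was asked within each shRNA group in log2(FPKM + 1). In the libraries labelled Gcgr shRNA (n = 7), Slc34a1 followed Cyp24a1 with Pearson r = 0.85 and Spearman rho = 0.86 (exact permutation p = 0.0210 and 0.0238, adjusted 0.294 and 0.333 over 14 relations). Slc34a3 gave r = 0.77 and rho = 0.79 (exact permutation p = 0.0452 and 0.0480, adjusted 0.317 and 0.336). Neither passed the adjustment. Without libraries 13 and 31, the lowest and the highest in Cyp24a1, r was 0.57 for Slc34a1 and 0.54 for Slc34a3. In Ctr shRNA (n = 6) the same relations were r = 0.02 and 0.33, which became 0.86 and -0.33 without Ctr shRNA 8 and 20, so they rest on those libraries. The difference between the groups was not tested. The strongest relation in Ctr shRNA was that with Vdr, r = -0.81 and rho = -0.71 (exact permutation p = 0.0833 and 0.136, adjusted 0.344 and 0.635). No relation of the 14 passed. The 4 control libraries are too few for a correlation.

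Among libraries labelled Gcgr shRNA, Vdr was lower where Cyp27b1 was higher. Their r was -0.80 and rho -0.89 (exact permutation p = 0.0179 and 0.0123, n = 7), and r was -0.70 without libraries 13 and 31. In Ctr shRNA the same pair gave r = -0.31 and rho = 0.09 (exact permutation p = 0.519 and 0.919, n = 6). After adjustment over all 28 pairs in both groups, 56 relations chosen after the data were seen, the smallest adjusted p was 0.511 for Pearson and 0.544 for Spearman, so this pair did not pass either. Library 31 labelled Gcgr shRNA held the highest values of its group for Cyp24a1, Cyp27b1, Kl and Slc34a3 and the lowest for Vdr. It was picked out after its values were seen. Some distal calcium-handling genes were also highest there among all 17 libraries: S100g, which encodes calbindin-D9k, at 2608 FPKM against at most 1312 elsewhere, Calb1 at 108 against at most 88.0, and the calcium channel Trpv5 at 6.79 against at most 5.55. Trpv6, a related channel, was lowest there, at 0.405 FPKM. The 10 distal convoluted tubule markers, Calb1 and Kl among them, also had their highest mean log2 level in library 31, at 5.16 against at most 5.10 elsewhere, and their part in these values was not tested. Their summed level there was 579 FPKM, against 595 in control 38.

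**Figure D3:**
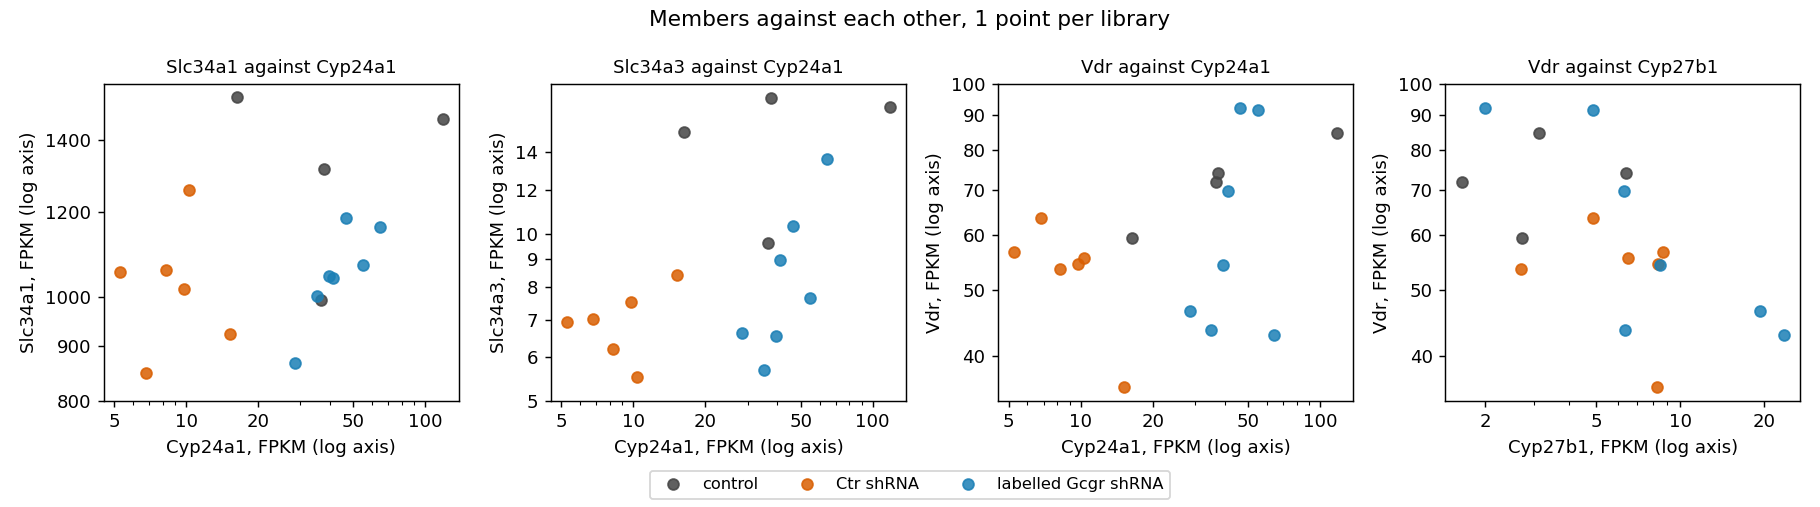
Slc34a1, Slc34a3 and Vdr against Cyp24a1, and Vdr against Cyp27b1, in FPKM on log axes with 1 point per library. Among the 7 libraries labelled Gcgr shRNA, Slc34a1 and Slc34a3 lie higher where Cyp24a1 is higher (r = 0.85 and 0.77) and Vdr lies lower where Cyp27b1 is higher (r = -0.80), none of which passed the adjustment.

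Across all 17 libraries the genes most like Cyp24a1 in log2(FPKM + 1) were R3hdml at r = 0.84, Izumo4 and Zbtb22 at 0.80, Ap1ar at 0.78 and Gnmt, the glycine methyltransferase, at 0.77. The most opposite were Rbbp5 at -0.84, Miga2 and Pbx4 at -0.83, Dnajb13 at -0.82 and the transketolase gene Tkt at -0.80. These correlations describe libraries that share their groups and carry no test. Among the 8, Slc34a3 was the most like Cyp24a1, at r = 0.53 and rank 440 of the tested genes, and Cyp27b1 the least, at -0.01 and rank 6637. These values include the group difference on which Cyp24a1 was selected. Once each group's mean was removed, Kdm8 at 0.80, Dok1 at 0.76, Zfp143 and Nuak1 at 0.74 and R3hdml at 0.71 led, and Srfbp1 at -0.81, Nol10 at -0.75, Cdip1 at -0.72, Rab31 at -0.71 and Acot3 at -0.70 were the most opposite. With group means removed, Slc34a3 was again the most like Cyp24a1 among the 8, at r = 0.37 and rank 673. Pth1r was then the least, at 0.02 and rank 6172. R3hdml was the one gene in both lists of alike genes, with 2.29 to 4.79 FPKM in control, 1.27 to 3.10 in Ctr shRNA and 2.97 to 6.24 under the label Gcgr shRNA.

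Genes that supply and activate vitamin D changed in part in Ctr shRNA against control. Of 12 tested, 3 fell and 1 rose by limma adjusted p, with a median log2 difference of -0.16, against 3.91% lower and 3.58% higher among all tested genes. Sc5d, a late enzyme of sterol synthesis, went from 9.23 ± 0.70 (SD, n = 4) to 6.45 ± 0.65 FPKM (n = 6), by -0.46 in log2, which passed in all 27 alternatives. Dhcr7, which draws on the same precursor as vitamin D synthesis, fell by 0.40, and Cubn, the cubilin that takes up the vitamin D carrier, fell by 0.44. Gc, the carrier itself, rose by 0.71. Cubn is also 1 of the 22 proximal tubule markers, whose median log2 difference there was -0.37. Their part in its fall was not tested. The calls of Dhcr7, Gc and Cubn were each lost without any one of control 37, 38 or 39, and that of Cubn also without Ctr shRNA 1, 4 or 6, with limma adjusted p up to 0.0652, 0.0716 and 0.124 in that order. Without a filter the calls of Gc and Cubn were lost as well. That of Cubn was also lost with only the 2 groups compared, and without both Ctr shRNA 20 and Gcgr shRNA 31. In the libraries labelled Gcgr shRNA against control, where 2.02% of all tested genes passed, Sc5d alone of the 12 did, by -0.37. Without control 38 its limma adjusted p was 0.0588.

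The receptor's partners and co-regulators gave 0 calls among 14 tested genes in Ctr shRNA against control, with a median of -0.08. Those with the smallest p were the co-repressor Ncor1 at -0.27 and the co-activator Ncoa1 at -0.26 (limma adjusted p = 0.078 and 0.102). Of 15 tested genes known as targets of the receptor, 2 rose and 1 fell, with a median of -0.07, against 7.49% called among all tested genes. Cdkn1a, the cell cycle inhibitor p21 that has many other inducers, went from 2.29 ± 0.49 FPKM in control to 23.1 ± 4.41 in Ctr shRNA and 23.5 ± 8.26 under the label Gcgr shRNA, and passed in both comparisons with control under all alternatives. Spp1, which encodes osteopontin, rose by 1.18, and the calcium-sensing receptor gene Casr fell by 0.83. The call of Spp1 held in 15 of 27 alternatives and was lost without any one control library or Ctr shRNA 1, 4, 8 or 20 (limma adjusted p at most 0.122), and that of Casr was lost without control 39 (adjusted p = 0.0603). Spp1 also lost its call without a filter, at the same total FPKM, with quantile normalization and without both Ctr shRNA 20 and Gcgr shRNA 31. Macrophage markers moved in both directions in the same comparison. Of 8 tested, 2 rose, Lyz2 by 1.30 and Cd68 by 0.64, against 3.58% of all tested genes. Csf1r alone fell, by 0.95, against 3.91% of all tested genes, and the median of the 8 was 0.55. All 10 of these markers were above 0 in every library, and they summed to 72.0 to 96.5 FPKM in control, 73.1 to 176 in Ctr shRNA and 101.1 to 173 under the label Gcgr shRNA. Their part in the change of Spp1 was not tested. The calcium genes Calb1, S100g and Trpv5 did not pass in any of the 3 comparisons, and Trpv6 was below the level tested.

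Parathyroid hormone signalling gave 0 higher and 2 lower genes of 23 in Ctr shRNA against control, a share near the 7.49% of all tested genes: the phosphodiesterase gene Pde4d by -0.32 and the arrestin gene Arrb1 by -0.45, calls that held in 16 of 26 and 14 of 27 alternatives. Both were lost without any one control library, that of Pde4d also without Ctr shRNA 1, 6 or 20, and that of Arrb1 also without Ctr shRNA 1, 4 or 19 or Gcgr shRNA 15 or 34 (limma adjusted p up to 0.0976 and 0.123). Both were also lost without a filter, at the same total FPKM or with only the 2 groups compared, and that of Arrb1 by voom. FGF23 and klotho signalling gave 0 of 16, and Fgf23 itself was at 0 in every library, as was Pthlh. Of 16 phosphate transport genes 1 rose and 2 fell, with a median of -0.09, again against 7.49% of all tested genes. Enpp1, which makes pyrophosphate, fell by 0.49 under all 26 alternatives it could be tested in, and Slc34a3 is described above. Slc20a1, the cotransporter found in most cells, rose by 1.01, from 9.28 ± 3.43 to 19.8 ± 8.64 FPKM, and held in 13 of 27. It was lost without control 37, 38 or 39, Ctr shRNA 1, 4, 6 or 19, or Gcgr shRNA 13, 15, 29, 32 or 34 (limma adjusted p up to 0.178). It was also lost without a filter and with only the 2 groups compared. Of 15 calcium and magnesium transport genes 0 rose and 3 fell, against 3.58% and 3.91% of all tested genes: Egf, whose product stimulates magnesium entry, by -1.09, Casr by -0.83 and the uromodulin gene Umod by -0.77. All 3 are made in the thick ascending limb or distal tubule, and 4 of 9 thick ascending limb markers, these 3 included, fell alongside. The call of Egf held in all 27 alternatives and that of Umod in 19 of 27, being lost without any one control library or Ctr shRNA 4 or 6 (limma adjusted p up to 0.102). Umod also lost its call without a filter and with only the 2 groups compared.

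In the libraries labelled Gcgr shRNA against Ctr shRNA, none of the 7 gene lists held a called gene. Median log2 differences lay between -0.01 for parathyroid hormone signalling and 0.14 for calcium and magnesium transport and for FGF23 and klotho signalling, against -0.00 for all genes. The calcium and magnesium list had 14 of 15 genes above 0, and those with the smallest p were Egf at 0.53 and Cldn16 at 0.48 (limma adjusted p = 0.453 and 0.475). Egf and Cldn16 are themselves thick ascending limb markers, and 8 of 9 markers of that segment (median 0.44) and 10 of 10 of the distal convoluted tubule (median 0.17) were also above 0. Summed thick ascending limb markers ran from 431 to 1081 FPKM in Ctr shRNA and from 882 to 1217 under the label Gcgr shRNA. Summed distal convoluted tubule markers ran from 361 to 507 and from 440 to 579 FPKM, and none of the 9 and 10 genes was at 0 in any library. The part of segment markers in the list's values was not tested. Against control the same libraries held called genes in 3 lists, Sc5d, Cdkn1a and Slc34a3 being the 3 genes. Among all tested genes 2.02% passed in that comparison. Cyp24a1 is in none of these lists.

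**Figure D4:**
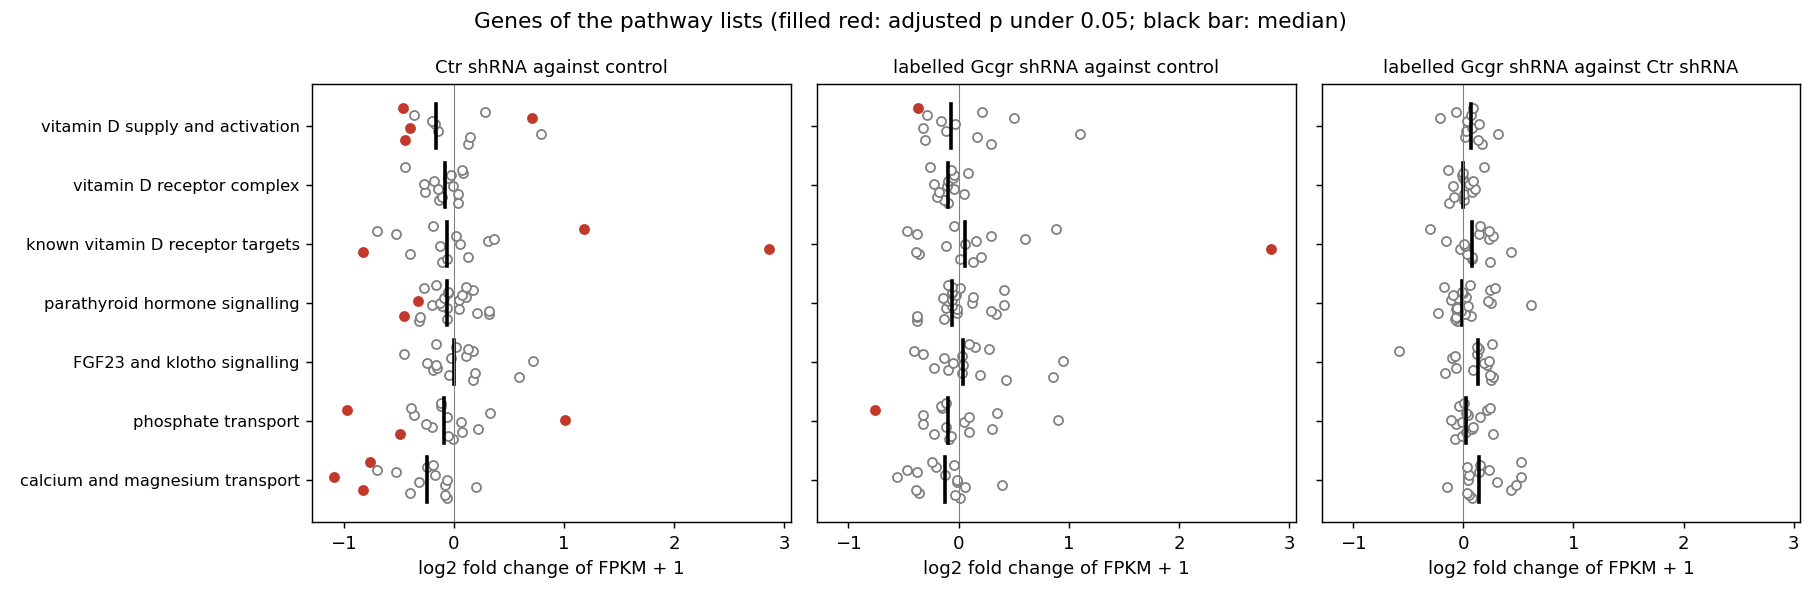
Log2 differences of FPKM + 1 for each tested gene of 7 gene lists in the 3 comparisons (points, red where the limma adjusted p is under 0.05) with the median of each list as a black bar. Red points are found in 5 lists for Ctr shRNA against control, in 3 lists for the libraries labelled Gcgr shRNA against control, and in none for those against Ctr shRNA.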

How the data were processed

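Total RNA of whole kidney, extracted with Trizol, was sequenced from SMARTer mRNA-Seq libraries, per the labels' protocols. The authors deposited one table of FPKM per gene, with gene lengths and coordinates in its columns. GRCm38 and mm10 stand in the submitters' processing notes, and no source used here gives the aligner or counter. Of the table's lines, 1 was incomplete and was left out. Low FPKM values were whole multiples of 1 read in every library (100% within 0.05 of a whole number), which gave 13997657 to 17107876 reads a library. Replicate pairs differed by more than counting noise, and all 17 libraries were counted. That excess does not show that the libraries came from separate mice.

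Values were taken as log2(FPKM + 1), a scale that understates changes of low genes. The 13279 genes that reached 1 FPKM in 4 or more libraries entered limma-trend (limma 3.58.1, R 4.3.3) with all 3 groups, Benjamini-Hochberg adjustment over all tested genes and a threshold of 0.05. The fit was tested on simulated data. Python 3.11.15 and SciPy 1.17.1 gave the exact two-sided permutation tests. Members and gene lists were chosen with earlier results of these data known. Named were the 8 members and Gcgr, in each list and comparison up to 4 passing genes with the smallest p or else 2, and the 5 genes most like and most opposite to Cyp24a1, predicted genes left out. Alternatives covered pseudocounts, filters, scaling, sample weights, 2 groups alone, voom on recovered reads and each library left out; leaving out both Ctr shRNA 20 and Gcgr shRNA 31 was added after seeing the data, as were the 28 pairs.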

Additional observations from a re-analysis of the deposited data

Results flagged for a closer look

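Vdr in Ctr shRNA 20 was the lowest of its 6 libraries, at 36.1 FPKM, and its gap to the next library was 0.699 of the group's whole range. It was the 1 flag among 27 gene and group combinations examined, where chance flags about 5%. The same library held the highest fat cell and urothelium marker sums; their part in this value was not tested.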

How the results depend on the processing

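No paired analysis was possible because the groups share no replicate numbers. For Ctr shRNA against control, 994 genes were called, 597 without a filter, 2087 with sample weights and 456 to 1264 when 1 library was left out, the fewest without control 39. For the libraries labelled Gcgr shRNA against Ctr shRNA, 0 were called, and 1 with a pseudocount of 0.1, a mean FPKM of 5 or more or only the 2 groups compared, with 0 to 3 when 1 library was left out. For those against control, 268 were called, 155 without a filter, 154 with a mean FPKM of 5 or more, 1070 with sample weights, 444 with only the 2 groups compared and 103 to 348 when 1 library was left out. Of 1796 log2 differences recomputed, 1670 kept their direction and side of the threshold, 94 lost and 15 gained the call and 17 changed sign; the cause was not tested. Cyp24a1, which has no test, counts there as unchanged within 1 SD, but its difference from control under the label Gcgr shRNA, 0.08, became -0.34 without control 39, -0.08 with sample weights and -0.02 without Gcgr shRNA 31, alone or with Ctr shRNA 20. Pth1r in Ctr shRNA against control ran from -0.116 to 0.0194 without single libraries, the latter without Ctr shRNA 20, and was 0.0194 without both Ctr shRNA 20 and Gcgr shRNA 31. Between the shRNA groups Slc34a1 was -0.0034 at the same total FPKM, -0.0120 without those 2 libraries and -0.0113 to 0.102 without single ones. Rxra there was 0.0190 with sample weights and -0.0322 to 0.0264 without single libraries, and Pth1r was -0.0826 to 0.0524. Without the 2 libraries farthest from the median of Cyp24a1, 4 of 14 correlations changed sign: in Ctr shRNA Pth1r gave 0.89 and Slc34a3 -0.33, and in the libraries labelled Gcgr shRNA Rxra gave 0.95 and Kl -0.74. Cyp24a1 ran from 16.4 to 118 FPKM in the 4 control libraries, which limits the precision of its comparisons with control.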
